A study of Mus musculus with 6 samples.

Results

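Arterial endothelial cells line the arteries and arterioles that supply a nerve. They were taken here as nerve barcodes with at least 500 unique molecular identifiers (UMIs, each counting 1 captured RNA molecule), at least 300 genes and at most 20% mitochondrial UMIs. Each had to show at least 3 of the pan-endothelial genes Pecam1, Cdh5, Cldn5, Flt1 and Egfl7 and at least 2 of the arterial genes Gja5, Gja4, Bmx, Sema3g and Efnb2. At most 1 of the venous genes Ackr1, Selp, Vwf and Sele was allowed, and none of the lymphatic, Schwann, fibroblast and macrophage genes Prox1, Mmrn1, Sox10, Pdgfra and Csf1r. The rule found 1167 cells among 50973 nerve barcodes past the filters, of 51726 deposited. They were compared with the 2772 other endothelial cells, which met the pan-endothelial and exclusion criteria but failed the arterial or the venous one.

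The cells came from whole sciatic nerves of C57BL/6 mice at postnatal days 0, 7, 14, 28 and 60 (P0 to P60), with no other genotype or treatment. The tissue was digested warm with collagenase and papain. Each age was 1 library, pooled from 22, 21, 18, 15 and 13 animals in the order of ages, so ages are set side by side without replicates and without p-values. Per the labels each pool held both sexes, with 6 of 15 animals female at P28 and 8 of 13 at P60. The study followed how unmyelinated axons become enclosed by Schwann cells, and the labels name glia as the cell type, whereas the cells described here carry endothelial genes. A dorsal root ganglion library of P14 animals was not used.

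The P28 and P60 libraries go against their sex labels. Xist, the RNA that silences 1 X chromosome in female cells, was at 452, 894 and 479 CPM (UMIs of a gene per 1000000 UMIs of the summed cells) over all cells at P0, P7 and P14, but at 0.515 CPM at P28 and 0.275 CPM at P60. In the arterial cells Xist was at 234, 947, 439, 0 and 0.851 CPM in the order of ages. The Y-linked Ddx3y was at 67.2, 56.6, 56.9, 106 and 93.6 CPM in the same cells. At P14, 345 arterial cells had Y-linked UMIs without Xist and 376 had Xist without Y-linked UMIs, against 697 and 762 of the other endothelial cells. At P28 and P60 the arterial cells with Xist and no Y-linked UMI numbered 0 and 0, against 67 and 86 with Y-linked UMIs alone. In sums over all arterial cells, a difference between P14 and the later ages therefore cannot be told apart from a difference in sex. Counts of genes by their P60 to P14 ratio, and some single ratios, are also given for cells with Y-linked UMIs and no Xist at both ages. The comparison of arterial with other endothelial cells is made within each library, where both classes come from the same animals.

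Arterial identity in endothelial cells is set by vascular endothelial growth factor acting through Notch receptors and by transcription factors of the SoxF family, while the nuclear receptor Nr2f2 maintains venous identity. Gja4 and Gja5 encode the connexins of arterial gap junctions, Bmx a cytoplasmic tyrosine kinase, Sema3g a secreted semaphorin and Efnb2 the ephrin ligand that marks arteries against the Ephb4 of veins. In peripheral nerve, arteries and arterioles run in the outer connective tissue and feed microvessels inside the fascicles, whose endothelium forms the blood-nerve barrier.

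The promoters of the 5 arterial genes of the rule are shown because these genes define the cells. Each run covers the 230 bases from 250 to 21 bases before the transcription start, on the gene's strand, in mouse build GRCm38.p6 from RefSeq. They lie at chr3:97032152-97032381 (plus strand) for Gja5, chr4:127314060-127314289 (minus) for Gja4, chrX:164258214-164258443 (minus) for Bmx, chr14:31217623-31217852 (plus) for Sema3g and chr8:8661263-8661492 (minus) for Efnb2. Capitals mark the letters TGGGAA (core of the Notch partner RBPJ) and ACAAT (core bound by SOX factors) on either strand. CGGAAG, a core bound by ETS factors, was searched in the same way and found in none of the 5.
Gja5: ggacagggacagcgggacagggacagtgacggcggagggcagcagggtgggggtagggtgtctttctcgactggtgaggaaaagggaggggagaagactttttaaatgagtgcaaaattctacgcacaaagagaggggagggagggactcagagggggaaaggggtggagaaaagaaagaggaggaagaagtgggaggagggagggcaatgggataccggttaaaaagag
Gja4: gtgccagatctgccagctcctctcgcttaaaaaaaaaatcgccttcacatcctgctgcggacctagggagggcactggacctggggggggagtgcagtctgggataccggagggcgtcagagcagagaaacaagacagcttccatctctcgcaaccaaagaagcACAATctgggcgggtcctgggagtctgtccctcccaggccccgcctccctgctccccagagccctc
Bmx: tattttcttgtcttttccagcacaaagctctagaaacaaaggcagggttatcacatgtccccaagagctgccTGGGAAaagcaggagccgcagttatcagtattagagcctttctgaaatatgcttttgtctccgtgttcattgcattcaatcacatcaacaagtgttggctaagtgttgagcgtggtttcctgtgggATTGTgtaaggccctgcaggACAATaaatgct
Sema3g: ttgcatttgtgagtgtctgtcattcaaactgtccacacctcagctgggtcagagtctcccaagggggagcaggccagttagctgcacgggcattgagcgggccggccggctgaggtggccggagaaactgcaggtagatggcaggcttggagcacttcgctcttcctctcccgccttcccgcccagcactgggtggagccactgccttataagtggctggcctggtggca
Efnb2: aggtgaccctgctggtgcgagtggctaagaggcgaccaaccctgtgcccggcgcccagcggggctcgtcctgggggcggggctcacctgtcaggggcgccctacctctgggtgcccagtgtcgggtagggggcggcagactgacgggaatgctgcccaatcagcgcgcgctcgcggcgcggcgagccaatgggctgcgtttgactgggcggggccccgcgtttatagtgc
RBPJ letters were found in Bmx alone, 178 bases before the start, against 20.04% of 32851 mouse promoters of the same length. SOX letters were found in Gja4 and, at 2 places, in Bmx, against 26.4% of promoters, and ETS letters occur in 11.7%. The GC content ran from 44.4% in Bmx to 71.3% in Efnb2, with a median of 51.7% over all promoters. These are letter matches and no measure of binding.

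The rule's own genes are given as a description, with no test. Summed over the arterial cells of a library, Gja5 was at 18.2, 82.3, 33.9, 90.2 and 85.1 CPM from P0 to P60 and Gja4 at 265, 175, 192, 243 and 168 CPM. Sema3g was at 98.1, 165, 248, 359 and 296 CPM, Bmx at 27.2, 108, 82.6, 145 and 115 CPM and Efnb2 at 158, 309, 196, 178 and 152 CPM. In the other endothelial cells Gja5 was at 0, 0, 0.425, 3.44 and 1.81 CPM, where the counts of 0 at P0 and P7 allow up to 3.01 and 17.4 CPM, and Efnb2 ran from 34.1 to 134 CPM. Gja5 was lowest at P0 and highest at P28 among the arterial cells, and it had a UMI in 6 of 32, 5 of 18, 125 of 889, 33 of 113 and 38 of 115 of them. Exactly 2 arterial genes were detected in 550 members, 3 in 329, 4 in 198 and all 5 in 90. A Gja5 UMI was found in 14.1% of arterial and 0.312% of non-endothelial cells at P14, whose median depths were 9561 and 5147.5 UMIs. The commonest pair was Sema3g with Efnb2 (175 members), followed by Gja4 with Efnb2 (154).

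At P14 the 421 members with exactly 2 arterial genes had 319.6 CPM of Sox17, a SoxF factor, the 468 with 3 or more had 605 CPM, and the 788 capillary-type cells with 1 arterial gene just outside had 258 CPM. Plvap, which forms the diaphragms of endothelial fenestrae, was at P60 at 1993 CPM in the 49 members with 2 genes and 355 CPM in the 66 with 3 or more. The 87 capillary-type cells with 1 arterial gene had 2139 CPM at P60, so by Plvap the members with exactly 2 lay near the cells outside. At P0 the 20 members with exactly 2 genes had 139.6 CPM of Sox17, against 166 CPM in the 51 capillary-type cells with 1.

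The libraries held between 60763221 and 101441907 UMIs. From P0 to P60 the arterial cells numbered 32, 18, 889, 113 and 115, and their sums held 550699, 194343, 10131565, 754206 and 1175634 UMIs. Median depth per cell was 8731.5, 6225.5, 9561, 5460 and 7622 UMIs, against 5160.5, 3468, 5645.5, 4141.5 and 8623 in the other endothelial cells. The latter comprised 2253 capillary-type cells (at most 1 arterial and 1 venous gene), 479 venous-type cells (2 or more venous genes) and 40 with 2 or more of both. The 10 endothelial markers together were at 10514, 10229, 11592, 8980.3 and 10777 CPM in arterial cells from P0 to P60, against 70.3, 77.3, 381, 139 and 89.4 CPM in non-endothelial cells. They include Egfl7, Cldn5, Cdh5 and Flt1, by which the rule separated these classes, so this contrast was partly fixed by the choice of cells. Pairs of nerve libraries shared 15 to 40 barcodes, none of them arterial in both libraries of a pair. As doublets 19 arterial cells were marked and kept, 1 of them at P0, where Scrublet's own threshold called 0% and a fixed share of scores was used.

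Arterial cells made up 19.3% of endothelial cells in the P0 library (exact 95% interval 13.6% to 26.1%) and 41.9% in the P7 library (27.0% to 57.9%). The share was 31.3% in the P14 library (29.6% to 33.0%), 24.1% in P28 (20.3% to 28.2%) and 27.4% in P60 (23.2% to 31.9%). The share was lowest at P0 and highest at P7, where it rested on 18 cells. Detection of 2 genes depends on depth. After each cell was thinned to 3000 UMIs, which left out 2, 3, 47, 22 and 15 arterial and 51, 9, 365, 116 and 48 other endothelial cells, the shares were 10.3%, 26.3%, 18.3%, 17.3% and 16.5%. The whole rule was applied again to the thinned counts of 165, 38, 2693, 358 and 401 endothelial cells, which include cells whose genes of other lineages were no longer detected, so these shares are not of the same cells. The thinned intervals of P14, P28 and P60 overlap, and all intervals cover counting error only. These are shares of dissociated cells that were captured, and fewer arterial cells and less release of them from the tissue cannot be told apart.

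**Figure D1:**
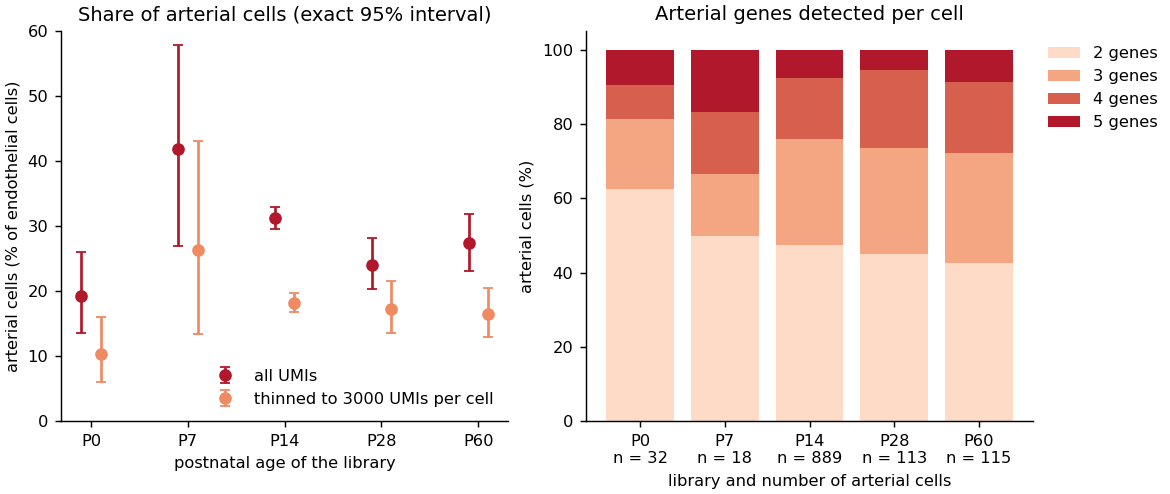
Left, arterial cells as a percentage of endothelial cells in each library (points, with exact 95% intervals for counting error), from all UMIs and after thinning to 3000 UMIs per cell; right, arterial cells by the number of the 5 arterial genes detected. The unthinned share runs from 19.3% at P0 to 41.9% at P7, and the thinned shares of P14, P28 and P60 lie between 16.5% and 18.3%.

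Against the other endothelial cells of the same libraries, the arterial cells were higher in the Notch ligands Dll4, Jag1 and Jag2, the SoxF factor Sox17 and the BMP receptor Acvrl1, and lower in the venous genes Nr2f2, Aplnr and Vcam1. Sums per library and class were fitted with edgeR's quasi-likelihood test with the library as a block, over 9359 genes that the rule did not use. The p-values therefore rest on how the difference varied over 5 libraries of different ages. At an adjusted p of 0.05, 352 genes were higher in arterial cells (3.76% of those tested) and 275 were lower (2.94%). With UMIs split at random, cells chosen on 1 part and tested on the other, 303 of 7749 were higher (3.91%) and 253 lower (3.26%). The count of lower genes depended on single libraries, at 171 without P60, 179 without P14 and 183 without P28, and leaving out the library block gave 6 higher and 2 lower genes.

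Alpl, tissue-nonspecific alkaline phosphatase, had the largest fold among the named genes. It was at 14.5, 5.15, 26.0, 204 and 162 CPM in arterial cells from P0 to P60 and at 1.00, 0, 0.425, 15.5 and 6.17 CPM in the other endothelial cells (log2 fold change 4.53 ± 0.23 (SE), adjusted p = 7.33e-09). The highest arterial values were those of P28 and P60. Its direction at P7 is not determined, since 1 arterial UMI stands against 0 of 171995, which allow up to 17.4 CPM. Nebl, an actin-binding protein, was at 39.9, 56.6, 44.0, 105 and 40.0 CPM against 2.01, 0, 2.83, 13.2 and 0.726 CPM (log2 fold change 3.85 ± 0.24 (SE), adjusted p = 1.52e-08). Tmem100, a target of ALK1 receptor signalling, was at 43.6, 20.6, 29.8, 65.0 and 37.4 CPM against 2.01, 0, 2.98, 8.02 and 1.45 CPM (log2 fold change 3.51 ± 0.23 (SE), adjusted p = 1.22e-08). For Nebl and Tmem100 every arterial value lay above every value of the other endothelial cells, which held for 59 of the genes tested (0.63%). Non-endothelial cells had 19.6, 10.3, 41.5, 56.1 and 76.8 CPM of Tmem100, and the part of their RNA was not tested.

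The other genes named for being higher were St8sia6, a sialyltransferase (3.48 ± 0.21), Tox2, an HMG-box factor (3.44 ± 0.31), Tmem178 (3.35 ± 0.24), Rgs10, a regulator of G protein signalling (2.87 ± 0.25), and Plcg2, a phospholipase C (2.69 ± 0.24), as log2 fold changes ± SE. They also included Col8a1, a network-forming collagen (2.61 ± 0.28), S100a4, a calcium-binding protein (2.56 ± 0.42), Atp2a3, a calcium pump of the endoplasmic reticulum (2.55 ± 0.18), and Alox12, a lipoxygenase (2.52 ± 0.24). All 9 were higher in 5 of 5 libraries, with adjusted p-values by edgeR from 7.33e-09 for St8sia6 to 0.0282 for S100a4. At P7 the direction of several rests on few UMIs, with overlapping counting intervals. Alox12 had 3 arterial against 1 other UMI there, Tox2 and Plcg2 4 against 1, Tmem178 6 against 2 and Rgs10 6 against 4. S100a4 kept the call in 11 of the 16 alternatives that had the library block and lost it without P7, without P28, with P14, P28 and P60 only, without cells that held mural RNA and against all other cells past the pan-endothelial genes. Non-endothelial cells had 145, 113, 215, 87.7 and 279 CPM of S100a4 from P0 to P60, against 30.9, 134, 26.2, 162 and 105 CPM in arterial cells, and the part of their RNA was not tested. Col8a1 lost the call against all other cells past the pan-endothelial genes (log2 fold change 0.79). Its level in non-endothelial cells was 95.7, 86.7, 205, 580 and 261 CPM, against 10.9, 77.2, 72.3, 302 and 107 CPM in arterial cells. Rgs10 was at 26.4, 34.6, 92.1, 57.8 and 154 CPM in non-endothelial and 39.9, 30.9, 59.1, 113 and 79.1 CPM in arterial cells. For these genes too the part of that RNA was not tested.

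Pgm5, an enzyme-related protein of cell junctions, had the largest fold in the other direction. It was at 5.45, 5.15, 2.17, 1.33 and 2.55 CPM in arterial and 15.1, 46.5, 30.0, 38.9 and 58.8 CPM in other endothelial cells (log2 fold change -3.78 ± 0.27 (SE), adjusted p = 2.10e-08), with no overlap between the classes, as for 27 genes tested (0.288%). Vcam1, which binds leukocytes, was at 1.82, 10.3, 4.94, 31.8 and 28.9 CPM against 9.04, 46.5, 35.9, 93.3 and 127 CPM (log2 fold change -2.32 ± 0.18 (SE), adjusted p = 1.41e-07). Both classes had more Vcam1 at P28 and P60 than at P14, and the arterial cells had less in 5 of 5 libraries. Further genes named for being lower were Lrg1, a secreted glycoprotein (-2.42 ± 0.37), Rasa4, which restrains Ras (-2.24 ± 0.16), Tmem252 (-2.23 ± 0.22), Samd5 (-2.02 ± 0.15), the homeobox factor Lhx6 (-1.95 ± 0.14), the ligand Bmp4 (-1.92 ± 0.17) and the chemokine scavenger Gpr182 (-1.83 ± 0.26). They also included the flavin monooxygenase Fmo1 (-1.76 ± 0.15) and the junction protein Plekha7 (-1.69 ± 0.20). Each was lower in 5 of 5 libraries. At P7 Gpr182 had 2 arterial against 2 other UMIs, Tmem252 1 against 2 and Lrg1 0 against 3, so their direction there is not determined. Lrg1 kept the call in 9 of these 16 alternatives and lost it with at least 3 arterial genes, under count splitting, without the filter on low counts, with P14, P28 and P60 only and without P0, P7 or P28. Bmp4 lost it against capillary-type cells, where its log2 fold change was -0.63 ± 0.33 (adjusted p = 0.468).

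**Figure D2:**
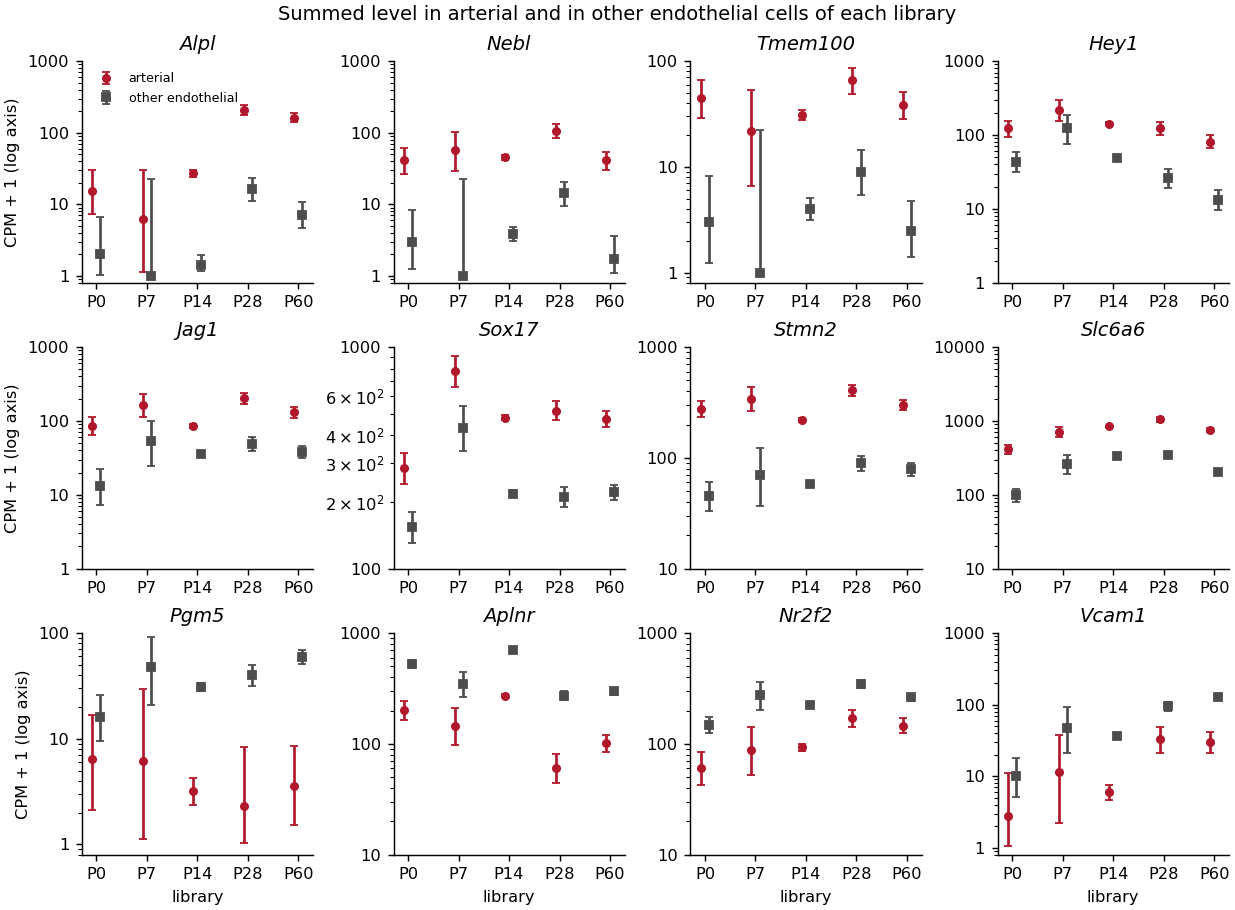
Summed level (CPM + 1, log axis) of 12 genes in arterial cells (circles) and other endothelial cells (squares) of each library, with exact Poisson 95% intervals. The first 8 genes are higher in arterial cells in all 5 libraries, where Alpl at P7 rests on 1 UMI against 0, and the last 4 are lower in all 5, with the widest intervals at P7.

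Of 31 tested genes of the arterial identity list, 19 were higher and 0 lower by edgeR (26 and 1 at an unadjusted p under 0.05, 22 and 0 by DESeq2), with a median log2 fold change of 1.05 against -0.01 over all genes tested. The 5 genes of the rule were left out of this count, and 14 of the 19 kept the call in every alternative that had the library block. Sox17 was at 283, 777, 479, 516 and 472 CPM against 153, 430.2, 217, 209 and 221 CPM (log2 fold change 1.08 ± 0.09 (SE), adjusted p = 3.04e-07). Stmn2, a microtubule-binding stathmin known mainly from neurons, was at 276, 339.6, 220, 407 and 301 CPM against 44.2, 69.8, 57.4, 88.8 and 78.0 CPM (log2 fold change 2.12 ± 0.11 (SE), adjusted p = 8.82e-10). Its ratio ran from 3.83 at P14 to 6.25 at P0. Tm4sf1, a membrane protein of endothelium, was higher by 1.05 ± 0.08, the hypoxia-inducible factor Epas1 by 0.55 ± 0.09, glutamine synthetase Glul by 1.76 ± 0.17 and the guidance receptor Unc5b by 1.81 ± 0.15 on the log2 scale. Among members that did not pass, Clu, a secreted chaperone, was at 21.8, 226, 133, 1108 and 809.8 CPM against 1.00, 0, 20.97, 274 and 354 CPM (log2 fold change 2.06 ± 0.42, adjusted p = 0.0791), with the difference in 5 of 5 libraries but of very unequal size.

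Notch pathway members were called in both directions, 6 of 20 higher and 2 lower, against 3.76% and 2.94% over all genes tested. Hey1, a transcriptional target of Notch, was at 122, 216, 142, 123 and 80.0 CPM in arterial and 42.2, 122, 47.1, 25.2 and 12.3 CPM in other endothelial cells (log2 fold change 1.81 ± 0.19 (SE), adjusted p = 9.26e-05). The ligand Jag1 was at 85.3, 165, 84.9, 202 and 129 CPM against 12.0, 52.3, 34.6, 47.5 and 37.0 CPM (log2 fold change 1.74 ± 0.16 (SE), adjusted p = 3.00e-06). Jag2 (1.27 ± 0.13) and Dll4 (0.94 ± 0.13), 2 further ligands, were also higher in 5 of 5 libraries. The receptor Notch4 (0.64 ± 0.11) and the target Hes1 (0.38 ± 0.10) were called but not against capillary-type cells. The lower genes were Lfng, which modifies Notch receptors (-0.84 ± 0.19), and the ligand Dll1 (-0.76 ± 0.17). Dll1 differed by 0.08 ± 0.18 (adjusted p = 0.967) from capillary-type cells and by -1.91 ± 0.26 (adjusted p = 0.00129) from venous-type cells by edgeR.

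Venous identity genes were lower in arterial cells, 13 of 16 tested with 0 higher by edgeR (0 also at an unadjusted p under 0.05 and by DESeq2) and a median log2 fold change of -1.10. The rule allowed at most 1 venous gene in an arterial cell, and its 4 venous genes are not in this count. The comparison cells include venous-type cells chosen for 2 or more of those genes. Against capillary-type cells 8 of 16 were lower, and 6 of the 13 kept the call in every alternative that had the library block. Nr2f2 was at 59.9, 87.5, 91.9, 169.7 and 145 CPM against 147, 273, 226, 347 and 262 CPM (log2 fold change -1.15 ± 0.10 (SE), adjusted p = 4.12e-07). Aplnr, the apelin receptor, was at 199.7, 144, 272, 59.7 and 100.4 CPM against 525, 343, 696, 271 and 296 CPM (log2 fold change -1.54 ± 0.11 (SE), adjusted p = 4.24e-08). Both were lower in 5 of 5 libraries, as was Nrp2, a receptor for VEGF-C and class 3 semaphorins (-1.18 ± 0.15). Plvap was at 162, 221, 646, 654 and 994 CPM against 222, 355, 916, 2169 and 2449 CPM (log2 fold change -1.001 ± 0.22 (SE), adjusted p = 0.0479) and kept the call in 9 of these 16 alternatives. It lost it against capillary-type cells, against all other cells past the pan-endothelial genes, without cells that held mural RNA, with at least 3 arterial genes, under count splitting, without P7 and without P60. Aqp1, a water channel, was at 875, 242, 141, 149 and 275 CPM against 1182, 337, 919, 1861 and 2533 CPM, yet with a log2 fold change of -2.28 ± 0.69 it did not pass (adjusted p = 0.215). The ratio of arterial to other cells was 0.741 at P0 and 0.717 at P7, but 0.154 at P14. Against venous-type cells alone Aqp1 was lower, by -4.16 ± 0.20 on the log2 scale (adjusted p = 2.11e-10 by edgeR). Against capillary-type cells it did not pass (-1.71 ± 0.60, adjusted p = 0.325 by edgeR).

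Venous-type cells alone were fitted at P14, P28 and P60, with 285, 72 and 111 of them. Against these cells 696 of 9614 genes were higher (7.24%) and 636 lower (6.62%). Against the 2253 capillary-type cells, over 5 libraries, 278 of 9224 were higher (3.01%) and 194 lower (2.1%). In the list of capillary and blood-nerve barrier genes, 16 of 35 were higher and 4 lower against venous-type cells, and 4 of 34 were higher and 4 lower against capillary-type cells. Mfsd2a, a lipid transporter of barrier endothelium, differed from venous-type cells by 4.38 ± 0.32 (adjusted p = 5.26e-07) and from capillary-type cells by 0.89 ± 0.28 (adjusted p = 0.172) on the log2 scale. Slc6a6, the taurine transporter, was higher against both, by 2.49 ± 0.28 (adjusted p = 0.00108) and 1.48 ± 0.12 (adjusted p = 2.84e-07). Against all other endothelial cells it was at 410.4, 710.1, 842, 1047 and 752 CPM versus 98.4, 262, 332, 348 and 201 CPM (log2 fold change 1.66 ± 0.11 (SE), adjusted p = 7.93e-09). The junction protein Cgnl1 was higher as well (log2 fold change 2.10 ± 0.20 (SE), adjusted p = 5.54e-05), while Meox2, a homeobox factor, was lower (log2 fold change -0.74 ± 0.10 (SE), adjusted p = 6.24e-05). The glucose transporter Slc2a1 was at 76.3, 504, 354, 107 and 194 CPM against 56.2, 430.2, 196, 125 and 61.3 CPM and did not pass (adjusted p = 0.307).

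Of the 32 tested genes of vessel tone and shear response, 10 were higher and 6 lower (over all genes tested, 3.76% and 2.94%). Edn1, the precursor of the vasoconstrictor endothelin, was at 198, 154, 179.8, 253 and 469 CPM against 99.4, 180.2, 71.7, 85.9 and 114 CPM (log2 fold change 1.38 ± 0.25 (SE), adjusted p = 0.0278). It was higher in 4 of 5 libraries, lower at P7, and lost the call without P0, P14 or P28. Ptgs1, a cyclooxygenase, was at 25.4, 61.7, 24.1, 50.4 and 41.7 CPM against 49.2, 58.1, 91.0, 180.4 and 189 CPM (log2 fold change -1.80 ± 0.18 (SE), adjusted p = 5.39e-05). Npr1, the receptor of atrial natriuretic peptide, was lower in 5 of 5 libraries (-0.89 ± 0.12), as was the mechanosensitive channel Piezo2 (-0.69 ± 0.14). Nos3, endothelial nitric oxide synthase, differed by 0.14 ± 0.11 and did not pass (adjusted p = 0.687). In the gap junction list 2 genes were tested beyond those of the rule and 0 were called by edgeR at the adjusted threshold, at an unadjusted p under 0.05 or by DESeq2, with Gja1 at 0.20 ± 0.16 (adjusted p = 0.697).

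In the TGF-beta and BMP pathway, 6 of 25 genes were higher and 3 lower, against 3.76% and 2.94% over all genes tested. The receptor Acvrl1 (ALK1) was at 176, 201, 206, 279.8 and 275 CPM against 109, 221, 129, 165 and 164 CPM (log2 fold change 0.64 ± 0.10 (SE), adjusted p = 4.93e-04), higher in 4 of 5 libraries. The ligand Tgfb2 was at 113, 329, 188, 135 and 74.0 CPM against 42.2, 209, 50.4, 27.5 and 16.3 CPM (log2 fold change 1.79 ± 0.18 (SE), adjusted p = 1.12e-04). The receptor Tgfbr2 was higher (0.50 ± 0.10) and the co-receptor Tgfbr3 lower (-0.78 ± 0.12), both in 5 of 5 libraries. The co-receptor Eng was lower (-0.43 ± 0.11), though not in every alternative. Among signals to mural cells, the smooth muscle and pericytes around vessels, 7 of 15 were higher and 3 lower, with Pdgfd at 49.0, 82.3, 41.1, 65.0 and 68.0 CPM against 25.1, 29.1, 21.8, 34.4 and 34.8 CPM (log2 fold change 0.95 ± 0.13 (SE), adjusted p = 4.93e-05).

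Matrix genes were called in smaller numbers, 3 of 20 higher and 1 lower for elastic fibres and extracellular matrix. For the basement membrane 4 of 23 were higher and 2 lower, against 3.76% and 2.94% over all genes tested. Fbln5, which assembles elastic fibres, was at 212, 1199, 171, 479 and 246 CPM against 65.3, 81.4, 36.7, 60.7 and 75.8 CPM (log2 fold change 2.33 ± 0.32 (SE), adjusted p = 0.0209), a call lost without P14 or P28. The highest arterial value was that of the 18 cells at P7. Eln, elastin itself, was at 399, 8691, 800.2, 662 and 447 CPM against 81.3, 360.5, 803, 622 and 431 CPM and did not pass (adjusted p = 0.737), with P7 far above the other libraries. Against venous-type cells Eln was lower, by -0.89 ± 0.16 on the log2 scale (adjusted p = 6.95e-04 by edgeR). The laminin chain Lama3 was at 29.1, 41.2, 47.8, 34.5 and 43.4 CPM against 6.02, 11.6, 20.7, 18.3 and 18.5 CPM (log2 fold change 1.24 ± 0.16 (SE), adjusted p = 4.43e-05).

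Genes of guidance and growth were mixed, where 3.76% of all genes tested were higher and 2.94% lower. Semaphorins and receptors had 0 higher and 4 lower of 14 by edgeR (1 and 7 at an unadjusted p under 0.05, 0 and 3 by DESeq2), among them the receptor Plxnb2 (-1.13 ± 0.15) and the ligand Sema6b (-0.80 ± 0.15), both lower in 5 of 5 libraries. Ephrins and other guidance genes had 2 higher and 3 lower of 14: the receptor Epha4 was higher (0.92 ± 0.11) and Flrt2 lower (-1.11 ± 0.15). The VEGF, angiopoietin and tip cell list had 3 higher and 4 lower of 19, with the growth factor Vegfc at 81.7, 108, 56.9, 127 and 111 CPM against 20.1, 34.9, 25.4, 24.6 and 43.5 CPM (log2 fold change 1.54 ± 0.17 (SE), adjusted p = 2.99e-05).

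Genes of leukocyte adhesion and inflammation were higher for 7 of 26 and lower for 2, against 3.76% and 2.94% over all genes tested. The membrane-bound chemokine Cx3cl1 was at 10.9, 41.2, 39.1, 39.8 and 62.9 CPM against 10.0, 17.4, 21.5, 11.5 and 30.1 CPM (log2 fold change 1.01 ± 0.17 (SE), adjusted p = 5.64e-04). The interferon-induced Isg15 (0.67 ± 0.11) and Ifit1 (0.79 ± 0.13) and the adhesion molecule Icam2 (0.56 ± 0.10) were also higher in 5 of 5 libraries, whereas Icam1 was lower with Vcam1 (-1.54 ± 0.13). Immediate early and heat shock genes were higher for 3 of 20 (Hspa1b, Nr4a1 and Jund) and lower for 0 by edgeR (7 and 0 at an unadjusted p under 0.05, 4 and 0 by DESeq2), and all 3 lost the call in at least 1 alternative. No gene of DNA replication (18 tested) or of fetal growth and imprinting (11 tested) was called by edgeR. At an unadjusted p under 0.05 the replication list had 1 higher and 2 lower genes and the fetal list 3 higher and 0 lower, and DESeq2 called 0 and 1.

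**Figure D3:**
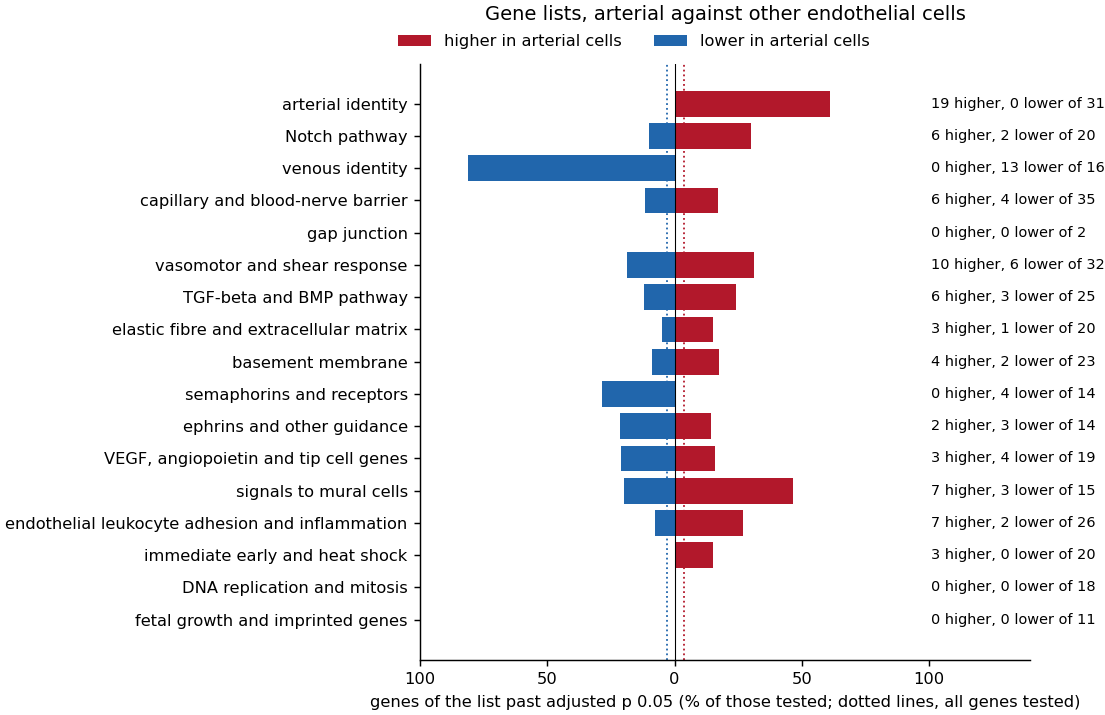
Percentage of the tested genes of each of 17 lists that were higher (right) or lower (left) in arterial than in other endothelial cells at an adjusted p of 0.05 (edgeR), with the counts at the right and dotted lines at the percentages over all genes tested (3.76% and 2.94%). The arterial identity list has 19 of 31 genes higher and the venous identity list 13 of 16 lower.

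The arterial cells were divided by detection of Gja5. Gja5 is a gene of the rule, and the split and the genes shown were chosen after their values were seen, so this is a description over the 3 libraries with over 100 arterial cells. Elastin was at 2336, 1239 and 713 CPM with and 494, 453 and 311 CPM without a Gja5 UMI at P14, P28 and P60. Fbln5 was at 559, 699 and 396 CPM with and 93.4, 399 and 169 CPM without, and Clu at 432, 1483 and 1199 CPM with and 73.5, 973 and 609 CPM without. Cytl1, a secreted cytokine-like protein, was at 35.7, 435 and 138 CPM with and 0.828, 18.1 and 27.1 CPM without. All 4 stood higher in the cells with Gja5 in the 3 libraries. Venous-type cells had 1898, 1205 and 545 CPM of elastin and 23.8, 494 and 502 CPM of Clu at P14, P28 and P60.

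Barrier transporters went the other way. Mfsd2a was at 5.94, 19.98 and 7.51 CPM with and 255, 48.7 and 90.2 CPM without a Gja5 UMI, Slc2a1 at 25.0, 94.9 and 50.1 CPM with and 420.0, 112 and 268 CPM without and Slc7a5, an amino acid transporter, at 14.9, 4.99 and 0 CPM with and 251, 30.7 and 128 CPM without. All 3 stood lower in the cells with Gja5, with overlapping counting intervals at P28. The 38 cells with Gja5 at P60 had 0 UMIs of Slc7a5, with an exact interval up to 9.23 CPM. Plvap was at 331, 115 and 325 CPM with and 708, 848 and 1337 CPM without, and Kdr, the main VEGF receptor, at 398, 215 and 318 CPM with and 911, 607 and 593 CPM without, lower with Gja5 in each library. Median depth was 10923, 4869 and 6911.5 UMIs with and 9093.5, 5773.5 and 7216 UMIs without Gja5. Acta2 of smooth muscle was at 25.0, 289.7 and 493 CPM with and 69.4, 428 and 258 CPM without, and its part in the differences was not tested. At P28 the cells with Gja5 also held more RNA of fibroblasts (Dcn 3052 against 785 CPM).

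**Figure D4:**
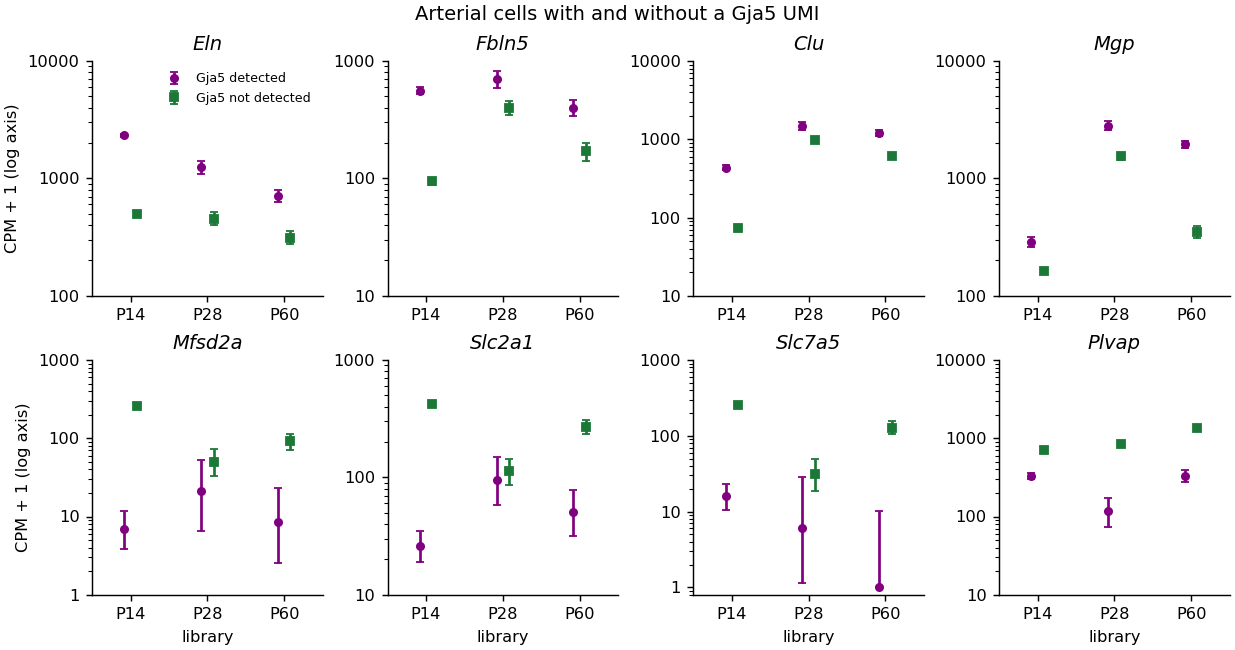
Summed level (CPM + 1, log axis) of 8 genes in arterial cells with (circles) and without (squares) a Gja5 UMI at P14, P28 and P60, with exact Poisson 95% intervals. Eln, Fbln5, Clu and Mgp are higher with Gja5 in each library, and Mfsd2a, Slc2a1 and Slc7a5 are lower, with overlapping intervals at P28.

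Between P14 (889 arterial cells) and P60 (115), stress-response and immune genes stood at higher levels in arterial cells at the later age and cell division genes at lower ones. With 1 library per age these are ratios of levels with exact 95% counting intervals and no test. Of 11052 genes with at least 50 UMIs, 503 were at least 2 times as high at P60 (4.55%) and 923 were at most 0.5 times as high (8.35%). In the other endothelial cells the same thresholds gave 405 of 12143 (3.34%) and 1260 (10.4%). In arterial cells with Y-linked UMIs and no Xist alone they gave 360 and 598 of 9233, of which 319 and 459 were the same genes.

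Immediate early and heat shock genes were at least 2 times as high at P60 for 14 of 20 and at most 0.5 times for 0. The counts in the other endothelial cells were 10 of 20 and 0. Hspa1a, a stress-induced heat shock protein, was at 1.82, 36.0, 5.13, 115 and 258 CPM from P0 to P60, with a P60 to P14 ratio of 50.2 (95% interval 37.3 to 68.8). In the other endothelial cells that ratio was 10.7 (95% interval 7.86 to 14.8) and in non-endothelial cells 6.17. Fos was at 198, 1229.8, 284, 1329.9 and 1609 CPM, a ratio of 5.67 (95% interval 5.34 to 6.01) against 2.52 in other endothelial and 4.41 in non-endothelial cells. The arterial values of both were high at P28 and P60, and Fos was also high at P7. With Y-linked cells alone the list counted 13 of 19, and the ratio of Hspa1a was 64.7 (95% interval 40.2 to 111).

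Of the list of leukocyte adhesion and inflammation, 12 of 24 were at least 2 times as high at P60 and 0 at most 0.5 times. The counts in the other endothelial cells were 12 of 27 and 0. The interferon-induced Ifi27l2a was at 16.3, 5.15, 10.8, 313 and 265 CPM, with a ratio of 24.7 (95% interval 19.8 to 31.0) in arterial, 6.79 in other endothelial and 2.95 in non-endothelial cells. The class I genes H2-Q6 and H2-Q7 had ratios of 24.2 (95% interval 16.8 to 35.4) and 16.8 (95% interval 12.6 to 22.5), against 24.6 and 20.8 in other endothelial and 1.73 and 1.81 in non-endothelial cells. As near copies of one another, H2-Q6 and H2-Q7 may share reads. H2-K1 was at 127, 473, 369, 1038 and 1267 CPM and B2m, the light chain of class I molecules, at 378, 355, 427, 1107 and 1267 CPM, both lower at P0, P7 and P14 than at P28 and P60. Vcam1 had a ratio of 5.86 (95% interval 3.68 to 9.24). With Y-linked cells alone the list counted 12 of 23, and the ratio of Ifi27l2a was 27.4 (95% interval 19.8 to 38.9).

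The other genes named for a high ratio were Penk, the enkephalin precursor (37.1), Hspa1b (25.0), Rasl11a (13.3) and Cp, the plasma ferroxidase (13.3). Without cells that held 2 or more mural genes the ratio of Rasl11a was 1.06 (95% interval 0.0247 to 7.30), from 11 UMIs at P14 and 1 at P60. That of Penk was 8.86 (95% interval 4.85 to 16.0), and that of Hspa1a was 43.6. Notch3, a receptor of mural cells, had a ratio of 7.03 (95% interval 5.57 to 8.86) in all arterial cells, but 11 UMIs at P14 and 0 at P60 once those cells were left out. The 12 mural markers together were at 45.4, 211, 657, 1876 and 2349 CPM in arterial and 211, 291, 955, 1277 and 1905 CPM in other endothelial cells. In order of age, 3.13%, 16.7%, 13.2%, 15.0% and 22.6% of arterial cells held 2 or more mural genes.

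**Figure D5:**
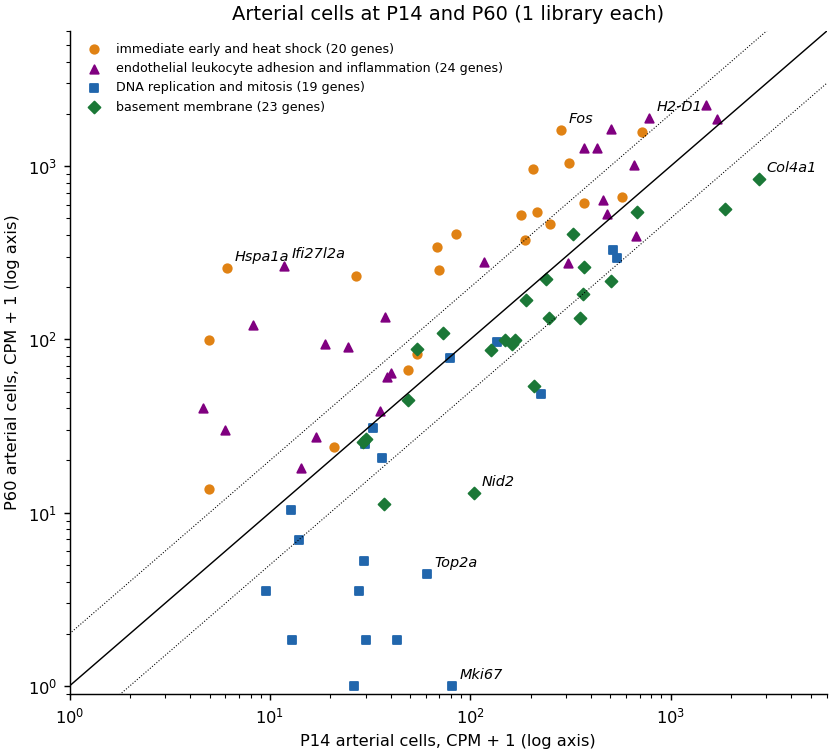
Levels at P14 (horizontal) and P60 (vertical) in arterial cells, as CPM + 1 on log axes, for the genes of 4 lists with at least 50 UMIs; the solid line marks equal levels and the dotted lines a 2-fold difference. Of the stress genes 14 of 20 lie above the upper dotted line, and of the replication genes 11 of 19 lie below the lower one.

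DNA replication and mitosis genes were at most 0.5 times as high at P60 for 11 of 19, and at least 2 times for 0. Mki67, a protein of dividing cells, was at 138, 273, 80.0, 7.96 and 0 CPM, with 811 UMIs at P14 and 0 at P60, which allows up to 2.55 CPM. The histone gene Hist1h1b was at 85.3, 180.1, 55.0, 6.63 and 0 CPM. Both were under 10 CPM from P28 on and highest at P7, where they rested on 53 and 35 UMIs from 18 cells. P7 was also the only nerve library counted with Cell Ranger 7.0.0. The list had 14 of 20 genes at most 0.5 times as high in the other endothelial cells as well. In arterial cells with Y-linked UMIs alone it had 11 of 19.

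Over all genes measured in arterial cells, 8.35% were at most 0.5 times and 4.55% at least 2 times as high at P60. The basement membrane list had 7 of 23 genes at most 0.5 times as high at P60 and 0 at least 2 times. These counts were 9 and 0 of 23 in the other endothelial cells and 7 and 0 of 23 in arterial cells with Y-linked UMIs alone. Col4a1, a collagen IV chain, was at 3581, 1559, 2766, 833 and 839.5 CPM, a ratio of 0.304 (95% interval 0.285 to 0.323) against 0.248 in other endothelial cells. The nidogen Nid2 had a ratio of 0.115 (95% interval 0.0627 to 0.194). In the barrier list 5 of 36 were at most 0.5 times and 3 at least 2 times as high. These counts were 11 and 2 of 37 in the other endothelial cells and 4 and 4 of 36 in arterial cells with Y-linked UMIs alone. Mfsd2a was at 1.82, 118, 213, 41.1 and 62.1 CPM, a ratio of 0.291 (95% interval 0.227 to 0.367) in arterial and 0.126 (95% interval 0.0835 to 0.184) in other endothelial cells. Apcdd1, an inhibitor of Wnt signalling, had ratios of 0.255 (95% interval 0.186 to 0.342) and 0.0680 (95% interval 0.0408 to 0.107). In the arterial cells the P28 values of both genes lay below those of P60.

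The lists that follow stand beside 4.55% of all genes at least 2 times as high at P60 and 8.35% at most 0.5 times. Of the arterial identity list, 6 of 35 genes were at least 2 times as high at P60 and 1 at most 0.5 times. These counts were 4 and 4 of 33 in the other endothelial cells and 5 and 2 of 33 in arterial cells with Y-linked UMIs alone. Clu was at 21.8, 226, 133, 1108 and 809.8 CPM, a ratio of 6.09 (95% interval 5.60 to 6.62), and Mgp, an inhibitor of calcification, at 171, 3139, 183, 1884 and 894 CPM, a ratio of 4.88 (95% interval 4.52 to 5.27). Mgp was highest at P7, in the sum of 18 cells. The other endothelial cells had 20.97 CPM of Clu at P14 and 354 CPM at P60, and 148 and 344 CPM of Mgp. Edn1 had a ratio of 2.61 (95% interval 2.37 to 2.87), and Unc5b of 0.225 (95% interval 0.146 to 0.331). Of the fetal growth and imprinted genes 6 of 12 were at most 0.5 times and 2 (Dlk1 and Meg3) at least 2 times as high. These counts were 7 and 1 of 11 in the other endothelial cells and 5 and 2 of 11 in arterial cells with Y-linked UMIs alone. Without the cells that held 2 or more mural genes 0 of 11 were at least 2 times as high, with a ratio of 0.798 for Meg3 and 11 UMIs of Dlk1 at P14 and 0 at P60. The imprinted H19 was at 2698, 144, 68.3, 18.6 and 0.851 CPM and had its highest value at P0 by far, with 1 UMI at P60.

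The lowest ratios also included Xist and the globin genes Hba-a1, Hba-a2, Hbb-bs and Hbb-bt. Hbb-bs was at 102, 0, 761, 6.63 and 6.80 CPM in arterial cells, a ratio of 0.00894 (95% interval 0.00386 to 0.0176), and non-endothelial cells had 3400.4 CPM at P14 and 3.86 CPM at P60. RNA of other cell types was present in the arterial cells. The 10 Schwann markers together were at 656, 2918, 219, 753 and 104 CPM, against 14903, 96918, 8937, 4969 and 2599.8 CPM in non-endothelial cells, and the 10 fibroblast markers at 665, 844, 679, 3596 and 551 CPM against 14643, 21784, 22461, 47394 and 37509 CPM. Schwann RNA was highest at P7 and fibroblast RNA at P28. Between arterial and other endothelial cells, 0 of 5 tested Schwann and 0 of 6 tested fibroblast markers differed at the adjusted threshold by edgeR or DESeq2 (1 and 0 at an unadjusted p under 0.05 by edgeR). Of 8 tested mural markers Tagln was lower in arterial cells (-1.17 ± 0.10), by -2.35 ± 0.15 (adjusted p = 8.14e-10) against venous-type cells, and lost the call against capillary-type cells, where the log2 fold change was -0.11 ± 0.31. Of 4 tested red cell markers Hba-a1 and Hba-a2 were lower by edgeR, while DESeq2 called 0. Hba-a1 was not lower in every library, at 65.4, 0, 148, 10.6 and 1.70 CPM against 63.3, 0, 313, 30.9 and 1.09 CPM. The part of this RNA in other results was not tested.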

How the data were processed

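Single-cell RNA-seq (10x Genomics) was analysed from 5 sciatic nerve libraries. The authors deposited UMI counts per gene and barcode, made with Cell Ranger 5.0.1 (P0, P14, P28, P60) and 7.0.0 (P7), per the file headers. Seurat and build mm9 are named per the submitters' processing notes, but no source used here gives the annotation or the treatment of introns. Genes were matched by Ensembl ID (52081 shared, holding 96.1% to 99.4% of UMIs), since 2234 symbols differed in the P7 list.

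Within each library the UMIs of a class were added up and tested with edgeR 4.0.16 (R 4.3.3; TMM, filterByExpr, robust quasi-likelihood fit, library as block, two-sided, Benjamini-Hochberg adjustment at 0.05). The block was used because a library's arterial and other sums share their pooled animals. The 19 genes of the rule stayed in the totals and were left out of the tests. Standard errors are the log2 fold change divided by the square root of F. Ages were compared as ratios with exact Poisson intervals. Promoters came from RefSeq (5 of 5 genes matched).

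The members and the 17 gene lists were chosen with earlier results of these data known. Named genes are the 12 highest and 12 lowest log2 fold changes among calls with the same direction in 5 of 5 libraries and a mean of at least 20 CPM, plus list members. Between ages they are the 8 highest and 8 lowest ratios with at least 50 UMIs and 50 CPM and an interval that excludes 1. Mitochondrial, ribosomal protein and Gm or Rik genes were passed over. A gene that this rule names and a marker value are not reported here.

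Alternatives were other comparison cells, at least 3 arterial genes, count splitting, thinning, doublets (Scrublet; at P0, where its own threshold marked 0%, the top 8% of scores) or mural-RNA cells left out, other size factors, no filter, DESeq2 1.42.0, no block, and each library left out. The fit to P14, P28 and P60 alone, the ratios in cells with Y-linked UMIs only and the split by Gja5 were chosen after seeing the data. The fit was tested on simulated data.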

Additional observations from a re-analysis of the deposited data

How the results depend on the processing

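The counts of genes called moved with several choices. The 352 higher genes became 228 with cells thinned to 1 depth, 532 without a filter on low counts and 91 where the log2 fold change also had to exceed 1. The 275 lower genes became 534 against all other cells past the pan-endothelial genes, 450 without the filter, 181 with DESeq2 and 77 with the fold. Leaving out 1 library in turn gave 240 to 369 higher and 171 to 300 lower genes. Without the replicate block, 6 genes were higher and 2 lower. Of 116 called genes named or in lists, 60 kept the call in every alternative that had the block and could be fitted. Of the 352 higher genes 344 kept their sign against all other cells past the pan-endothelial genes, and of 261 lower genes tested against capillary-type cells 255 did. Among called genes that are named or in lists the log2 fold change reversed for Dll1 alone, -0.76 against all other endothelial cells and 0.0845 against capillary-type cells. The cause was not tested. Gja1, never called, was at -0.0161 against capillary-type cells and between -0.0068 and 0.418 when 1 library was left out. At least 3 arterial genes gave shares of 7.23%, 20.9%, 16.5%, 13.2% and 15.7% from P0 to P60, the fit then holding 4 libraries since P7 had 9 such cells. Thinning gave 10.3%, 26.3%, 18.3%, 17.3% and 16.5%. Count splitting gave 11.9%, 40.4%, 21.8%, 17.4% and 19.4%. P0 and P7, with 32 and 18 arterial cells, limit what could be detected in genes of low level.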

Other observations

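The values of 3 genes of polyamine metabolism, picked by hand after their values were seen and not from a fixed list, are given here as single genes. Amd1, the decarboxylase that supplies aminopropyl groups, was at 45.4, 56.6, 46.5, 129 and 83.4 CPM in arterial cells from P0 to P60 and at 11.0, 0, 8.29, 23.5 and 14.9 CPM in other endothelial cells (log2 fold change 2.46 ± 0.15 (SE), adjusted p = 7.33e-09, edgeR). Its near-identical genomic copy makes this value uncertain. Azin1, which protects ornithine decarboxylase from breakdown, was at 98.1, 221, 158, 322 and 162 CPM against 43.2, 87.2, 55.6, 108 and 62.8 CPM (log2 fold change 1.44 ± 0.10 (SE), adjusted p = 2.04e-08). Odc1, ornithine decarboxylase itself, was at 94.4, 36.0, 35.5, 42.4 and 54.4 CPM against 246, 110.5, 138, 108 and 142 CPM (log2 fold change -1.61 ± 0.12 (SE), adjusted p = 4.24e-08). Amd1 and Azin1 were higher in 5 and 5 of 5 libraries and Odc1 was lower in 5 of 5, and the 3 calls held in every alternative that had the library block.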
